A study of Mus musculus with 81 samples.

Results

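MTB and MTC are families of MaLRs, the mammalian apparent LTR retrotransposons. All LTR loci of the mouse genome whose species name begins with MTB or MTC were taken as members. The choice used the names alone and no measured value, although earlier results of these data were known when it was made. It gave 43199 loci, or 4.45% of the 970384 LTR loci that were measured. The LTR species MTC held 27377 loci, MTB held 6415 and MTB_Mm held 4957. The internal species MTC-int, MTB-int and MTB_Mm-int held 3479, 592 and 379 loci. For comparison, the related MTA species held 18601 loci and the older MTD and MTE species together held 122722.

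RNA was measured in germline and somatic cells of fetal testes from mice whose F0 dams had drunk tributyltin (TBT), an organotin pollutant, or its DMSO vehicle. All mice, the controls included, were OG2 animals, B6;CBA-Tg(Pou5f1-EGFP)2Mnn/J on a C57BL/6J background. The transgene drives EGFP from the Pou5f1 promoter and distal enhancer, and sorting therefore took whatever cells expressed it. F0 dams received 50 nM TBT or 0.1% DMSO, in water with 0.5% carboxymethyl cellulose, from 7 days before mating through pregnancy and lactation. Sires were not exposed. F1 fetuses were exposed in utero, whereas F3 fetuses descended from the exposed dams through matings within the exposure group and were never exposed themselves. Cells of E18.5 testes were separated by FACS. P4 and P5 are EGFP-positive germline cells that differ in side scatter, and P6 are the EGFP-negative somatic cells. The DMSO and TBT groups held 5 and 7 libraries of F1 P4, 4 and 7 of F1 P5, and 5 and 7 of F1 P6. In F3 they held 4 and 5 libraries of each of P4, P5 and P6. Methylated DNA of P6 cells was measured in 3 DMSO and 4 TBT libraries of F1 and in 5 DMSO and 7 TBT libraries of F3. The study describes the MBD libraries as independently generated and the F1 values of them as coming from separate litters. Its methods do not state this of the RNA libraries, whose p-values therefore measure only the spread between libraries, which may be technical. P4 and P5 libraries of a group share library numbers and were sorted from testicular cell suspensions, but that a number marks a single suspension is not stated outright. Values with that number as a block are given where a call or a count depends on it.

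MaLRs are non-autonomous relatives of the ERVL class. They carry no working genes of their own and were copied by proteins of other elements. In the mouse, the LTRs of MT elements are known as promoters in growing oocytes and early embryos, where they start chimeric transcripts of host genes. The best known example is an MTC in an intron of Dicer1, from which a short, highly active form of the small RNA enzyme DICER1 is made in oocytes. In fetal male germ cells, the DNA methylation that silences LTRs is erased and laid down again with the help of piRNAs.

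The sequences of 5 members are shown because the results turn on them. The first is the MTC of Dicer1. The next 3 are the MTC, MTB and MTB_Mm loci with the highest signal that lie outside both GENCODE and RefSeq genes. The last is the MTC upstream of Nudc, the only member that passed the test between TBT and DMSO. Sequences are of GRCm38, 5′ to 3′ on the strand that resembles the Dicer1 MTC, which is itself read on the minus strand. At most 300 bases of each element are given. Capitals mark TATAAA, the TATA box motif, in the first and AATAAA, the canonical polyadenylation signal, in the others.
MTC in Dicer1 (chr12:104727322-104727621, minus strand): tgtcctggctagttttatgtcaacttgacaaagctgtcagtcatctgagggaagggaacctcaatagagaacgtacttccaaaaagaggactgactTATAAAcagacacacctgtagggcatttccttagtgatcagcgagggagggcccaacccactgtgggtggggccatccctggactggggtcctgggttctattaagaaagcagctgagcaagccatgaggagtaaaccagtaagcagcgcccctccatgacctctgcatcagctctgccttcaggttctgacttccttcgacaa
MTC near Gm31055 (chr4:153085561-153085860, plus strand): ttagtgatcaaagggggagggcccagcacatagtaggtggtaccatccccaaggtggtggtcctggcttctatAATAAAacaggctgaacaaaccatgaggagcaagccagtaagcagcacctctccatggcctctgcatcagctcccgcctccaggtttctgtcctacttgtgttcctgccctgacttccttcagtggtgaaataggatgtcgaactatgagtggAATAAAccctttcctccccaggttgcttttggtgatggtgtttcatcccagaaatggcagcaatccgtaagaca
MTB near Mylip (chr13:45435722-45436021, plus strand): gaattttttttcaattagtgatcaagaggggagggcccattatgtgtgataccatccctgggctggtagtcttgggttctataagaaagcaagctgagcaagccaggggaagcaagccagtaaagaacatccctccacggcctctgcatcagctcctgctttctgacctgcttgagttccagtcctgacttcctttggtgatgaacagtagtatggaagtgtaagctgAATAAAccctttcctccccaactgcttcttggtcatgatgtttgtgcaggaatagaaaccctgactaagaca
MTB_Mm near Gm38661 (chr9:121551150-121551403, minus strand): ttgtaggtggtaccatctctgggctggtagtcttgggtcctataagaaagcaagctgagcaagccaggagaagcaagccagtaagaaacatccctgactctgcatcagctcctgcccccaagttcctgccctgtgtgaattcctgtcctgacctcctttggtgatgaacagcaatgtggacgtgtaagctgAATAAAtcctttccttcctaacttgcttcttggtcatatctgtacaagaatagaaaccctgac
MTC near Nudc (chr4:133546911-133547210, plus strand): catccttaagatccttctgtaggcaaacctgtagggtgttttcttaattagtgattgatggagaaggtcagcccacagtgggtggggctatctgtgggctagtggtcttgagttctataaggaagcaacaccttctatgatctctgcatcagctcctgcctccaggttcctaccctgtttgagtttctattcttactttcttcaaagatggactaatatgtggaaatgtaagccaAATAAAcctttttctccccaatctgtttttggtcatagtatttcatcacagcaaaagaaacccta

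All 5 are recognisably the same kind of LTR. Against the whole Dicer1 MTC of 397 bp, the 4 other elements were 76.7%, 78.0%, 77.4% and 71.0% identical in the order shown, over 283, 354, 221 and 362 aligned bases. AATAAA stood toward the 3′ end of each of these 4, at bases 245 to 250, 313 to 318, 192 to 197 and 307 to 312 of the element. The first of them held a second copy at bases 92 to 97. The Dicer1 MTC held TATAAA at bases 97 to 102 and no AATAAA on either strand.

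Over whole species, AATAAA was more frequent in MTB than in MTC. Among LTRs of 300 to 450 bp, AATAAA was found on either strand in 84.8% of 4894 MTB, 71.1% of 3351 MTB_Mm and 56.1% of 14319 MTC loci. It was found in 92.4% of MTA loci and 48.6% of all LTR loci of that length. TATAAA was found in 8.68%, 14.2% and 20.4% of MTB, MTB_Mm and MTC loci. It was found in 7.89% of MTA, 19.6% of MTD and MTE and 29.0% of all. GGTAAG, the letters of a strong splice donor, was found in 4.58%, 5.67% and 8.76%. It was found in 2.62% of MTA, 11.4% of MTD and MTE and 9.15% of all. Members were poor in CpG, and so was MTA. MTC held 0.517 CpG per 100 bp, MTB_Mm 0.395 and MTB 0.278. MTA held 0.344, MTD and MTE 0.679 and all LTR loci 0.876. Median lengths were 316 bp for MTC, 390 bp for MTB and 384 bp for MTB_Mm.

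By the GENCODE annotation, 26916 members (62.3%) lay outside genes, 15299 in introns and 984 overlapped exons. Among LTR members of 300 to 450 bp in an intron of a single gene, the orientation could be set for 8083 of 8119 by their likeness to the Dicer1 MTC. Of these, 3355 (41.5%) lay on the same strand as their gene, with 41.6% of MTC, 41.8% of MTB and 40.5% of MTB_Mm.

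The sorted populations were checked through the LTR loci inside marker genes, since these tables hold no gene counts. Germline markers had loci in 10 of 13 genes, and their summed signal was 12608 to 22206 CPM in F1 P4 and 9211 to 17315 CPM in F1 P5, against 24.2 to 47.98 CPM in F1 P6, where 1 gene was at 0. CPM here is the deposited signal, read counts scaled per library by TMM. Sertoli cell markers (3 of 6 genes) ran the other way, with 637 to 908 CPM in F1 P6 and 6.66 to 81.0 CPM in the F1 germline libraries. In F3, germline markers ranged from 1280 to 18441 CPM in P4, from 142 to 13355 CPM in P5 and from 14.4 to 242 CPM in P6. Steroidogenic markers (3 of 6 genes) were at 187 to 477 CPM in F1 P6 and reached 219 CPM in F1 P4. Peritubular markers (4 of 4) were at 411 to 735 CPM in P6 and at most 43.7 CPM in germline libraries. Blood and vessel markers (4 of 4) were at 60.9 to 91.0 CPM in P6 and at most 51.6 CPM in germline libraries. In bulk samples such as these, fewer cells of a type and less RNA per cell cannot be told apart.

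Members took nearly the same part of the LTR signal in every F1 library, and nearly all of it came from introns. Libraries held 246520 to 8161548 reads in LTR loci, and 4.15% to 5.83% of them fell on members. In F1 the range was 5.48% to 5.83%. Of the reads on members, 61.2% to 92.2% lay in introns and only 0.354% to 28.4% outside genes. The share outside genes was 1.34% to 1.87% in the 12 libraries of F1 P4 and 2.77% to 5.40% in the 11 of F1 P5, so these populations did not overlap. At 1 read a locus was worth 0.129 to 0.957 CPM, and 3 reads, the most that a count of 0 allows, were worth 0.386 to 2.87 CPM.

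A few libraries stood apart in that share. In F1 P6, TBT libraries 7 and 8 held 5.26% (95% Wilson interval 5.15% to 5.36%) and 5.22% (5.12% to 5.33%) of member reads outside genes, against 0.354% to 0.885% in the other 10. In F3 P4, TBT libraries 5 and 9 held 9.78% (9.48% to 10.1%) and 11.3% (11.1% to 11.6%), against at most 4.10% in the others. In F3 P5, DMSO libraries 1 and 2 held 18.03% (17.8% to 18.3%) and 20.7% (20.4% to 20.97%) and TBT library 5 held 28.4% (27.5% to 29.3%), against at most 8.77%. The last had the fewest reads, 10222 on members. These intervals cover counting error only, since reads without molecular identifiers are not independent molecules.

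**Figure D1:**
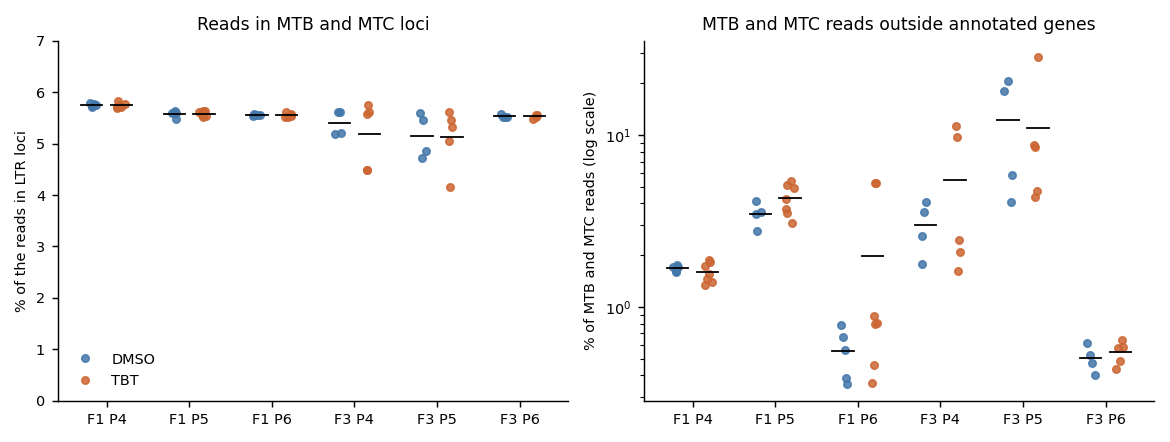
Share of LTR reads that fell on MTB and MTC loci (left, percent, linear axis) and share of MTB and MTC reads that lay outside annotated genes (right, percent, log axis), one point per library, blue for DMSO and orange for TBT, with a line at the group mean. The left panel is flat near 5.6% in F1, whereas the right panel rises from F1 P6 through P4 to P5 and shows the 7 libraries that stand apart.

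Intronic members did not carry independent values. Among neighbouring LTR loci of the same intron with at least 1 member and a mean of at least 20 reads in F1 P4, 1799 of 2380 pairs (75.6%) held the same number of reads in all 12 libraries, and 98.9% differed by no more than 5% in the median library. Where an exon lay between the loci, 63 of 922 pairs (6.83%) were identical. None of the 5 pairs outside genes was. The 4 members in an intron of Ywhaz, the gene of a 14-3-3 adaptor protein, were an example, with 391 CPM each in F1 P4. A value at an intronic locus is thus given as the value of that locus, with its intron named, and counts of intronic loci are not counts of separate transcripts.

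Outside genes, members were nearly silent in most copies, and in DMSO libraries the germline level was above the somatic one. Of the 26916 loci outside genes, 23250 were at 0 in every F1 P4 library, 17025 in every F1 P5 library and 20887 in every F1 P6 library, or 24312 without F1 P6 TBT libraries 7 and 8. Summed over the species and divided by their length, members reached 0.120 ± 0.00671 CPM per kb (SD, n = 5) in F1 P4 DMSO, 0.220 ± 0.0287 (n = 4) in F1 P5 DMSO and 0.0365 ± 0.0119 (n = 5) in F1 P6 DMSO. The F3 tables were scaled on their own and gave 0.257 ± 0.0905, 0.647 ± 0.342 and 0.0340 ± 0.00634 CPM per kb (n = 4 each), and F3 P5 DMSO was at 0.362 ± 0.106 (n = 2) without libraries 1 and 2. In TBT, F1 P6 was at 0.132 ± 0.149 CPM per kb (n = 7), of which libraries 7 and 8 held the most, and at 0.0451 ± 0.0155 (n = 5) without them. F3 P4 TBT went from 0.266 ± 0.143 (n = 5) to 0.177 ± 0.0393 (n = 3) without libraries 5 and 9, and F3 P5 TBT from 0.485 ± 0.211 (n = 5) to 0.523 ± 0.224 (n = 4) without library 5. Tables of germline and P6 cells were also scaled separately, so no test was run between them.

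Among the LTR species, MTB_Mm had the highest level per length in germline cells. It reached 0.255 ± 0.0291 CPM per kb in F1 P4 DMSO, against 0.107 ± 0.00485 for MTC, 0.0843 for MTB, 0.0583 for MTA, 0.118 for MTD and MTE and 0.108 for all other LTR species. In F1 P5 DMSO it was at 0.322 ± 0.0226, against 0.213 for MTC and 0.177 for MTB. This rank rested largely on the loci in CN725425 and near Gm38661. Without the 2 highest loci of each species, MTB_Mm was at 0.131 ± 0.0137 CPM per kb (n = 5) in F1 P4 DMSO, against 0.0848 for MTC, 0.114 for MTD and MTE and 0.107 for the other species. In F1 P5 DMSO it was then at 0.216 ± 0.0201 (n = 4), against 0.199, 0.221 and 0.218, and no longer the highest. In F1 P6 DMSO the order was gone. MTB_Mm was at 0.0323, MTC at 0.0349 and MTB at 0.0367 CPM per kb, below MTA at 0.0593 and the other species at 0.0642. The internal species lay between 0.0650 and 0.126 CPM per kb in F1 P4 DMSO, between 0.166 and 0.226 in P5 and between 0.0397 and 0.0619 in P6.

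**Figure D2:**
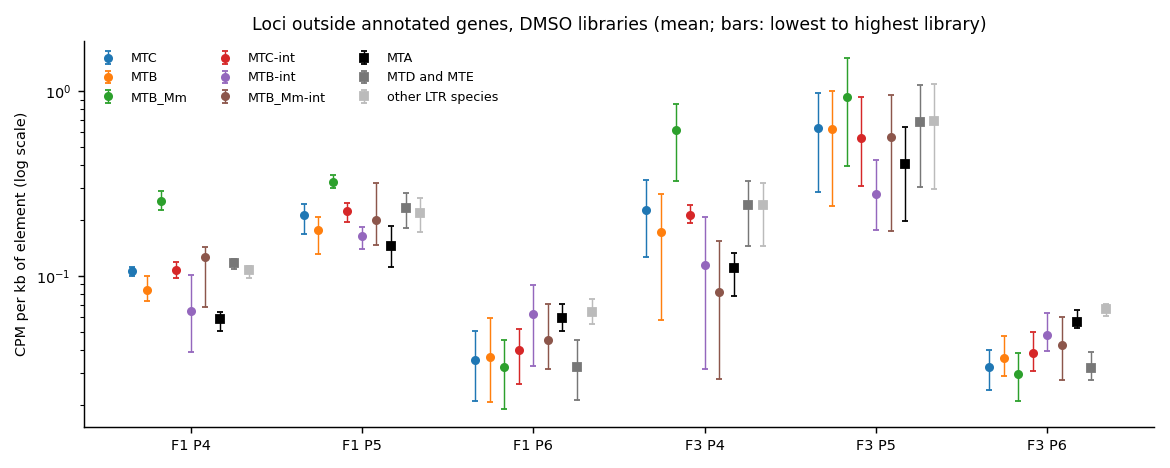
Mean signal per kb of element over loci outside annotated genes in DMSO libraries (log axis), for the 6 MTB and MTC species (circles) and for MTA, MTD and MTE, and all other LTR species (squares). Bars run from the lowest to the highest library. MTB_Mm, with its 2 highest loci included, stands above the other species in F1 P4 and P5 and in F3 P4, and P6 is low for all of them.

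In P4 much of the signal outside genes came from few loci, and in P5 it was spread more widely. In F1 P4 the 10 highest loci held 30.6% of the member signal outside genes and 9 loci exceeded 10 CPM. In F1 P5 the 10 highest held 13.3% and 11 loci exceeded 10 CPM, and in F1 P6 the 10 highest held 6.90% and no locus did. In F3 P4, P5 and P6 the 10 highest held 30.3%, 12.1% and 18.9%, and 21, 33 and 0 loci exceeded 10 CPM. The 100 highest held 51.1% in F1 P4 and 28.0% in F1 P5. In F3 the shares of the 100 highest were 55.1% for P4, 29.0% for P5 and 54.0% for P6. Without the libraries that stand apart the 10 highest held 15.6% in F1 P6, 30.2% in F3 P4 and 12.5% in F3 P5, and 0, 16 and 26 loci exceeded 10 CPM.

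Loci outside GENCODE genes were ranked by the mean over the 6 populations. Most of these populations are germline, and no such member averaged over 10 CPM in P6. The ranking therefore favours loci that are high in germline cells. The highest by that mean was an MTB_Mm at chr15:91261072-91261429, in an exon of the predicted RefSeq gene CN725425. Its DMSO libraries read 79.2, 101.4, 89.6, 77.6 and 99.3 CPM in F1 P4, 58.1, 74.2, 63.6 and 69.6 CPM in F1 P5 and 0 in all 5 of F1 P6. TBT libraries were at 84.9 to 106 CPM in P4, at 56.6 to 110 CPM in P5 and at no more than 0.679 CPM in P6. Every germline library of F1 was therefore above every somatic one.

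The MTC near Gm31055, 62788 bp downstream of that predicted gene, was at 76.4, 70.7, 70.2, 108 and 91.3 CPM in F1 P4 DMSO and at 63.4, 50.2, 41.9 and 64.6 CPM in F1 P5 DMSO. All F1 P6 DMSO libraries were at 0, and 1 TBT library was at 1.19 CPM. An RMER19B 645 bp away had a mean of 77.0 CPM in F1 P4 and 0.0467 CPM in F1 P6, and an MTD 7 bp away had 20.9 CPM in F1 P4. In F3 P4 the means were 103.6 CPM for the MTC, 72.6 CPM for the RMER19B and 53.5 CPM for the MTD. No library of F1 P4 held the same number of reads at the MTC and at either neighbour. In F3 P5, TBT library 5, which stands apart, was at 1.913 CPM against 42.0 to 100.5 CPM in the other 8.

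The MTB_Mm near Gm38661, 22993 bp downstream of it, was at 35.1, 32.3, 25.2, 28.6 and 45.7 CPM in F1 P4 DMSO and at 34.0, 28.0, 44.8 and 45.9 CPM in F1 P5 DMSO. In F3 P4 DMSO it read 214, 213, 90.0 and 122 CPM. The locus in CN725425 averaged 119.96 CPM in F3 P4 and 98.3 CPM in F3 P5, below the 150.4 and 138.1 CPM of this MTB_Mm. The RLTR44B beside it, 6 bp away, had a mean of 20.3 CPM in F1 P4, and in F1 P6 the MTB_Mm did not exceed 0.679 CPM. Germline and somatic libraries did not overlap in either generation.

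Among MTC loci, 1 near Tmco1, the gene of an endoplasmic reticulum calcium channel, lay 6007 bp downstream at chr1:167339985-167340266 and averaged 15.2 CPM in F1 P4, 11.99 in P5 and 1.96 in P6. An MTC of 393 bp without a CpG at chr9:57707996-57708388 lay 152 bp upstream of Edc3, which encodes a factor of mRNA decapping, and averaged 11.9, 11.9 and 0.633 CPM. The MTB near Mylip, 23698 bp downstream of this ubiquitin ligase gene, was the highest MTB outside genes. It was at 11.4, 5.60, 4.62, 5.91 and 18.3 CPM in F1 P4 DMSO, at 1.40 to 6.39 CPM in F1 P5 DMSO and at 0 in all 21 P6 libraries of both generations. At all 3 loci every F1 germline library was above every F1 P6 library. In F3, P5 DMSO library 2 was at 0 at the Edc3 locus and P5 TBT library 5 at 0 at the Mylip locus, both of them libraries that stand apart.

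**Figure D3:**
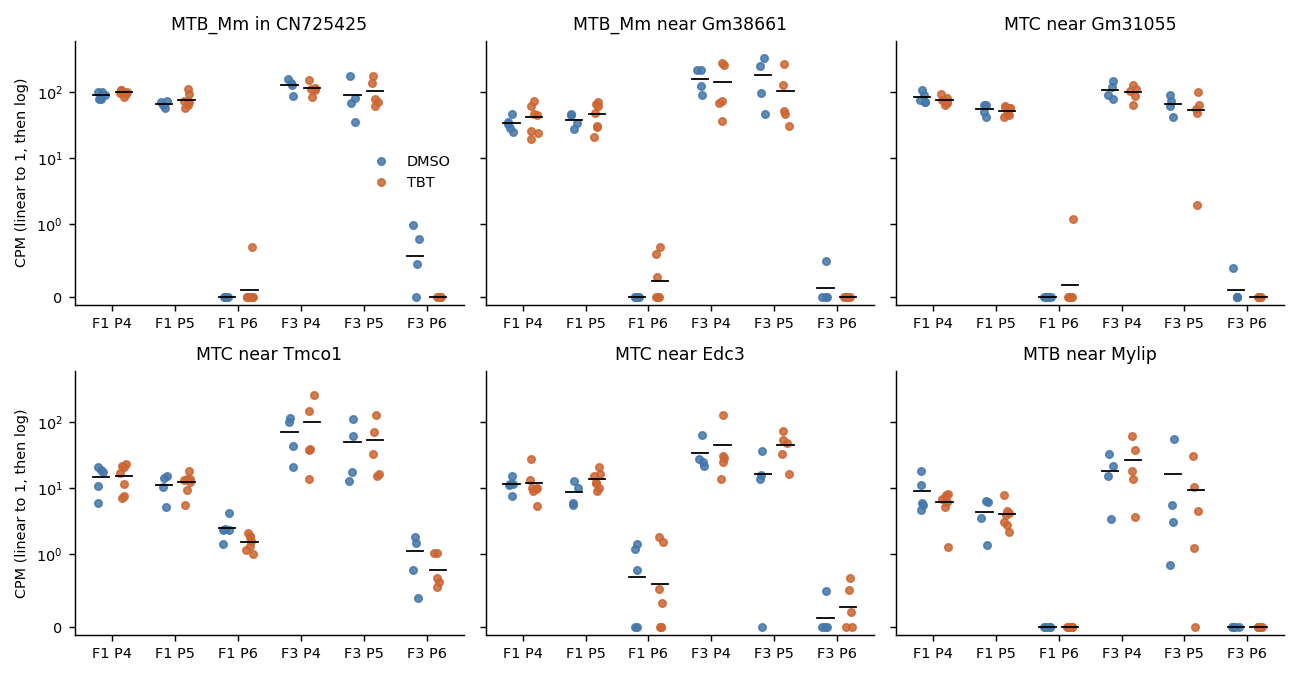
CPM in each library of the 5 MTB and MTC loci outside GENCODE genes with the highest mean over the 6 populations, and of the MTB near Mylip (axis linear up to 1 CPM and logarithmic above), blue for DMSO and orange for TBT, with a line at the mean. The F1 germline libraries lie above the F1 P6 libraries in every panel, and P6 lies at or near 0 at all loci but the one near Tmco1. Most of the 6 populations are germline, so the choice by that mean favours this separation.

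The same contrast was counted over all members and all LTR loci. Of 47 member loci outside genes with a sufficient signal in F1, 17 (36.2%) had every P4 library above every P6 library, against 36.8% of all LTR loci outside genes, and 4 (8.51%) had the reverse, against 15.4%. In F3 the counts were 23 of 157 (14.6%, background 13.7%) and 8 (5.10%, background 7.33%). In introns, 1143 of 5161 members (22.1%, background 21.5%) had every F1 P4 library above every P6 library and 1119 (21.7%, background 23.6%) the reverse. In F3 these were 254 of 5219 (4.87%, background 5.02%) and 1534 (29.4%, background 31.7%). Without the libraries that stand apart, 17 of 47 (36.2%, background 39.8%) and 4 (8.51%, background 16%) did so outside genes in F1, and 36 of 157 (22.9%, background 22.7%) and 8 (5.10%, background 7.73%) in F3. In introns these were 1186 (22.98%, background 22.1%) and 1189 (23.04%, background 24.9%) in F1 and 1003 (19.2%, background 18.8%) and 1599 (30.6%, background 32.9%) in F3.

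The members with the highest signal lay inside active genes. The first by the mean over the 6 populations was an MTC in an exon of Rpl13, a ribosomal protein gene, with 442 CPM, and the third an MTC in an exon of Psmb1, a proteasome subunit gene, with 339 CPM. An MTC in Atp5j, of the ATP synthase, and an MTB_Mm in Cct7, of the cytosolic chaperonin, followed the Ywhaz loci with 246 and 233 CPM. These housekeeping introns and exons were read in all populations.

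Among those 10, 2 differed strongly between germline and somatic cells. The MTB at chr1:166207550-166207738, in an intron of Mael, a gene of the piRNA pathway and of the germline marker list, was at 735, 628, 602, 600 and 731 CPM in F1 P4 DMSO, at 469, 432, 400 and 450 CPM in F1 P5 DMSO and at 0 to 1.43 CPM in F1 P6. The MTC at chr7:99346603-99346738, in an intron of Serpinh1, which encodes a chaperone of collagen, was the reverse. It read 685, 729.5, 725, 689 and 889 CPM in F1 P6 DMSO and 3.43 to 24.97 CPM in the F1 germline libraries of DMSO. In both, no library of the low population reached the high one in F1. In F3, the Mael locus was low in the libraries that stand apart. P4 TBT libraries 5 and 9 read 50.8 and 107 CPM against 785 to 1099 CPM in the other 7, P5 DMSO libraries 1 and 2 read 154 and 96.4 CPM, and P5 TBT library 5 read 1.913 CPM against 402 to 677 CPM in the other 6.

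Next, the 2 germline populations were compared within DMSO. Members moved as LTR loci in general did, higher outside genes and mixed in introns. Of 5540 members tested in F1, 735 (13.3%) passed the limma test at an FDR of 0.05, 424 higher and 311 lower in P5. Of all LTR loci 12.6% passed, 7.53% higher and 5.08% lower. At an unadjusted p under 0.05 there were 1582 members (background 27.7%). The median log2 fold change was −0.11 over members and −0.10 over all. With the same total given to every library in place of TMM, 476 of 621 called members were higher (background 11.3%, 8.83% higher and 2.49% lower), and the median of all loci moved from −0.10 to 0.02, so directions near 0 depend on the scaling. The groups did not overlap at 525 of the 735 called members (71.4%), against 71.5% of the 12786 LTR loci called. With the replicate block, which leaves out P4 library 44-3 as it has no P5 library of its number, 1164 members passed (background 20.6%). With 1 library left out the count ranged from 472 to 781 (background 8.32% to 13.4%).

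The same contrast was read in TBT animals, from the same fit and with a shared estimate of the spread. In them 1575 members (28.4%, background 29.2%) passed, 729 higher and 846 lower in P5, or 869 of 1329 higher with a common total (background 24%, 16.5% higher and 7.47% lower). With TMM all LTR loci were called higher in 13.9% and lower in 15.3%, and 2233 members reached an unadjusted p under 0.05 (background 40.2%). Of the 424 loci higher in DMSO, 373 were also called higher in TBT, which is 88.0% of the DMSO and 51.2% of the TBT calls. Of the 311 lower in DMSO, 233 were called lower in TBT, or 74.9% and 27.5%. No member was called in opposite directions. The overlap of calls was not counted over all LTR loci, so it is not shown to be particular to members. The difference of the contrast between TBT and DMSO passed at no member by limma or edgeR's quasi-likelihood test (background 0.000986%, and 204 members at an unadjusted p under 0.05, background 4.32%), and at 3 by edgeR's likelihood ratio test (background 0.0592%).

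Among members that passed the filter, those outside genes tended to be higher in P5 and those in introns were called in both directions. Outside genes, 19 of 147 (12.9%) were higher and 4 (2.72%) lower in DMSO, with a median log2 fold change of 0.66, against 18.4% and 1.29% of 4565 LTR loci with a median of 0.67. In introns 380 of 5077 were higher and 297 lower, with a median of −0.12, against 6.95% and 5.34% of all. In exons 25 of 316 were higher and 10 lower, against 7.82% and 4.22%. In TBT, 44 of the 147 were higher (background 37.4%) and 6 lower (background 2.04%). In introns of TBT, 629 were higher (background 12.4%) and 808 lower (background 16.2%), and in exons 56 (background 17.5%) and 32 (background 12.6%). Under the replicate block, 26 of the 147 were higher (background 21.8%) and 10 lower (background 3.29%) in DMSO. In introns 435 were then higher (background 8.45%) and 636 lower (background 11.8%), and in exons 32 (background 10.8%) and 25 (background 11.4%). The share of reads outside genes was also higher in every P5 library than in every P4 library, and its part in these counts was not tested. The filter took the mean over P4 and P5 together. Set within a population, it kept 347 members outside genes in F1 P5 and 94 in F1 P4. Loci high in P5 could thus enter the 147 more easily, which favours higher calls.

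**Figure D4:**
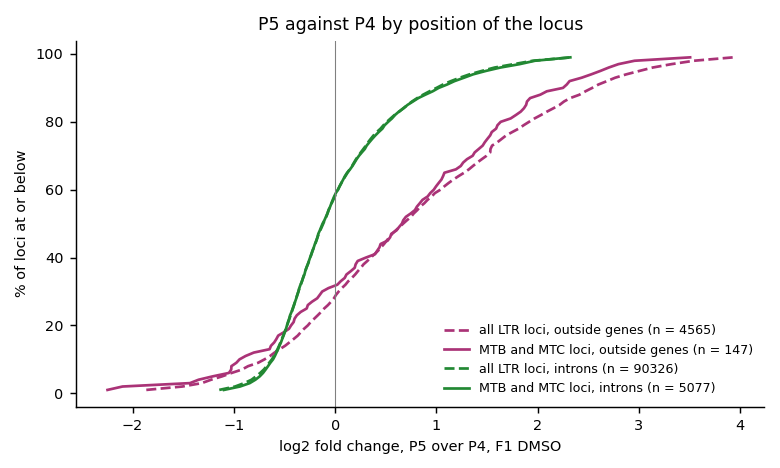
Percent of loci (vertical axis) at or below each log2 fold change of P5 over P4 in F1 DMSO (horizontal axis), for loci outside genes (purple) and in introns (green), MTB and MTC as solid lines and all LTR loci as dashed lines. The solid and dashed lines have nearly equal medians. The medians of the purple lines lie to the right of those of the green, at 0.66 and −0.12 for MTB and MTC.

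The 147 lay nearer to genes than other members outside GENCODE genes did. Of them, 31 (21.1%) fell in a RefSeq gene, 23 (15.6%) within 1 kb of one and 51 (34.7%) beyond 10 kb. Of the other 26769, 8.35% fell in a RefSeq gene, 3.66% within 1 kb and 60.4% beyond 10 kb. The 147 were kept by a filter on signal, so this describes where members are read and was not tested.

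Among called loci without overlap between the groups of F1 DMSO, an MTC-int had the largest rise. It lay 1191 bp upstream of the predicted gene Gm18904, at chr10:119088690-119088991. It had no read in the 5 libraries of F1 P4 DMSO and read 3.11, 7.47, 12.2 and 2.52 CPM in F1 P5 DMSO, an at least 8.57-fold higher mean when each P4 library is set to 3 reads (adjusted p = 1.0e-04 in limma). In TBT the log2 fold change was 2.51 (adjusted p = 0.00219), with 0 to 1.92 CPM in P4 and 0 to 7.69 CPM in P5.

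Among the 19 higher loci outside genes, the MTC near Gm33532, 462 bp upstream of it at chr8:12476783-12477182, had the highest P5 mean of DMSO, with 5.16 CPM in P4 and 19.8 CPM in P5 of DMSO and 2.17 and 26.8 CPM in TBT (log2 fold changes 1.86 and 3.71). Its DMSO libraries overlapped. The MTC-int near Rn18s-rs5, a ribosomal RNA sequence 3357 bp away, rose from 1.97 to 10.8 CPM in DMSO without overlap (log2 fold change 2.46). Both were named after their values were seen, and the reads of the latter lie beside a multi-copy sequence.

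Of the 4 that fell, the MTC near Gm31055 had the highest level. Its log2 fold change was −0.60 (SE 0.16, adjusted p = 0.0118) in DMSO and −0.53 (adjusted p = 0.00215) in TBT. Without DMSO P5 library 44-1 the adjusted p was 0.0766. The MTC-int near Gm27216, 21091 bp upstream of it at chr9:83275600-83276033, read 1.81, 4.00, 5.08, 2.22 and 0.915 CPM in P4 DMSO and 0, 0, 0 and 0.673 CPM in P5 DMSO (log2 fold change −3.03, SE 0.66, adjusted p = 0.00192). In TBT it did not pass (−0.25, adjusted p = 0.758), and the difference between DMSO and TBT did not pass either (adjusted p = 1.00). The MTC in the predicted gene Gm39845, at chr2:71968800-71968865, fell by 2.10 on the log2 scale in DMSO (adjusted p = 0.0164), with an adjusted p of 0.0795 without DMSO P5 library 43-5, and was at 0.09 in TBT.

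Inside genes, the MTB in Mael was lower in P5, with a log2 fold change of −0.59 (adjusted p = 0.00688) in DMSO and −0.73 (adjusted p = 1.9e-05) in TBT. The MTB_Mm in CN725425 gave −0.43 (adjusted p = 0.0608) in DMSO, or −0.47 (adjusted p = 0.00309) with the replicate block, and passed in TBT, with −0.38 (adjusted p = 0.0162).

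Summed over all positions, 5 of the 6 species were called lower in P5 by limma. In DMSO only 1 passed by edgeR's quasi-likelihood and by its likelihood ratio test, against 160 and 177 of all 664 species. With 1 library left out, 2 to 6 passed in DMSO by limma (background 21.2% to 39.2%). In DMSO the log2 fold change was −0.17 for MTC (SE 0.05, adjusted p = 0.0156), −0.16 for MTB (adjusted p = 0.0403), −0.20 for MTB_Mm (adjusted p = 0.0261), −0.18 for MTC-int (adjusted p = 0.00520) and −0.38 for MTB_Mm-int (adjusted p = 1.8e-04). MTB-int gave −0.23 (adjusted p = 0.0659), or −0.27 (adjusted p = 3.6e-04) with the replicate block (background 53.2%). Of 664 LTR species 35.1% passed, 13.1% higher and 22% lower, and the median of all was −0.07. At an unadjusted p under 0.05, all 6 passed (background 47.3%). The totals of MTC were 39480 ± 1680 CPM in P4 and 34967 ± 1100 CPM in P5 DMSO. In TBT the same 5 species passed (background 58.1%, 20.8% higher and 37.3% lower), from −0.18 to −0.45, and 5 had an unadjusted p under 0.05 (background 61.9%). With the block MTB-int passed there too, with −0.12 (adjusted p = 0.0185, background 66.7%). None of the 6 differed in this contrast between TBT and DMSO by the test of the difference (background 0%, none at an unadjusted p under 0.05, background 2.41%). With a common total, the median of all species moved to 0.06, and MTC was at −0.04 and MTB at −0.03. Then MTC, MTB_Mm and MTB_Mm-int passed in DMSO (background 40.2%, 30.1% higher and 10.1% lower). In TBT the common total gave −0.04 for MTC, and MTC, MTB_Mm, MTB_Mm-int and MTC-int passed (background 61.6%, 45.3% higher and 16.3% lower), while MTB was at −0.01 (adjusted p = 0.542) and no longer passed.

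Totals over loci outside genes ran the opposite way. In DMSO they were higher in P5 by a log2 of 0.99 for MTC (adjusted p = 7.9e-06), 1.06 for MTB (adjusted p = 4.4e-05), 1.06 for MTC-int (adjusted p = 3.3e-06), 1.40 for MTB-int and 0.65 for MTB_Mm-int (adjusted p = 0.0276). MTB_Mm gave 0.34 (adjusted p = 0.0702). Most LTR species did the same, with 75.6% of 589 higher. In TBT MTC was at 1.38, MTB at 1.72, MTC-int at 1.28 and MTB-int at 1.83, whereas MTB_Mm was at 0.50 (adjusted p = 0.00101) and MTB_Mm-int at 0.26 (adjusted p = 0.229, background 92.7%). Under the replicate block MTB_Mm passed in DMSO (0.30, adjusted p = 0.0370) and MTB_Mm-int did not (0.44, adjusted p = 0.102, background 77.6%). The test of the difference between TBT and DMSO passed at none of the 6, with adjusted p from 0.364 to 0.739. The reads outside genes were 1.34% to 5.40% of member reads in these libraries.

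In F3 no member passed between P5 and P4 by limma, in DMSO (background 0.00102%, 353 members at an unadjusted p under 0.05, background 8.01%) or in TBT (background 0.00306%, 172 members, background 4.14%). Medians were −0.55 and 0.39 over the 5172 members tested and −0.51 and 0.38 over all LTR loci. Without the 5 libraries that stand apart both changed sign, to 0.35 and −0.13 over members and 0.33 and −0.09 over all. With a common total the DMSO median of all moved to −0.21. By edgeR, the likelihood ratio test called 322 and 50 members (background 6.87% and 1.53%) and the quasi-likelihood test 3 and 0 (background 0.0224% and 0%). With the replicate block, 15 members passed in DMSO, 14 of them higher in P5 (background 0.328%, 0.321% higher), and 3 in TBT, all higher (background 0.0551%). The difference of the contrast between TBT and DMSO passed at no member by limma (background 0%, 72 members at an unadjusted p under 0.05, background 1.39%). Without the 5 libraries that stand apart, 123 members passed in DMSO, 100 of them higher in P5, and 51 in TBT, 50 of them higher (background 2.2% and 1.16%, or 1.77% and 1.13% higher). The MTC at chr5:39753988-39754400 in an intron of Hs3st1, a heparan sulfate sulfotransferase gene, came nearest with all libraries. It had no read in F3 P4 DMSO and read 43.8, 12.9, 9.82 and 6.002 CPM in F3 P5 DMSO (adjusted p = 0.0546, or 0.00756 with the replicate block), and it passed without the libraries that stand apart. In F3 TBT it read 0 to 0.233 CPM in P4 and 5.74 to 18.4 CPM in P5. Every F3 P5 library was above every F3 P4 library. In F1, P5 libraries were at 0.344 to 5.50 CPM and P4 libraries at 0 to 1.23 CPM, and the locus was called higher in P5 in TBT (log2 fold change 2.89, adjusted p = 8.6e-05) and not in DMSO (1.11, adjusted p = 0.273). The MTB in an exon of 9530026F06Rik had the lowest p among those lower in P5. It read 6.78, 3.42, 15.5 and 2.10 CPM in F3 P4 DMSO and had no read in F3 P5 DMSO (adjusted p = 0.157, or 0.0480 with the replicate block), and it too passed without the libraries that stand apart.

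None of the 6 species totals passed in F3 by limma (background 1.21% in DMSO and in TBT) or by either edgeR test (background 4.53% and 6.34% in DMSO and 2.11% and 2.72% in TBT by the quasi-likelihood and the likelihood ratio test), and none had an unadjusted p under 0.05 (background 6.95% and 4.53%). The same was true of the difference between TBT and DMSO (background 0%, and 0.302% at an unadjusted p under 0.05). Over loci outside genes in DMSO, MTB (1.80, adjusted p = 0.0193), MTB_Mm-int (2.68, adjusted p = 0.0126) and MTC (1.40, adjusted p = 0.0462) were higher in P5, against 33.7% of 603 species. In TBT only MTC-int passed (1.30, adjusted p = 0.0453, background 17.2%). Under the block, 5 totals passed in DMSO, all but MTB_Mm (background 53.4%), and MTB, MTC and MTC-int in TBT (background 38.8%). Without the libraries that stand apart, no total passed in DMSO (background 10.4%) and 4 passed in TBT, MTB, MTB-int, MTC and MTC-int (background 67%). Those libraries were set apart by their share of reads outside genes, so leaving them out bears directly on these totals.

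The study asked whether exposure of F0 dams changed the offspring. For members, 1 locus passed in 6 comparisons. No member passed in F1 P4 (of 5012, background 0%, 322 at an unadjusted p under 0.05), F1 P6 (of 4777, background 0.00341%, 158 members), F3 P4 (of 4588, background 0%, 67 members), F3 P5 (of 5578, background 0%, 44 members) or F3 P6 (of 5626, background 0.0343%, 459 members). In F1 P5, 1 of 6486 passed (background 0.0106%, 420 members). The tests were limma's. By edgeR's likelihood ratio test 1, 13, 0, 0, 159 and 13 members passed in the 3 populations of F1 and then of F3 (background 0.0982%, 0.32%, 0.05%, 0.00463%, 3.13% and 0.32%). By its quasi-likelihood test these were 0, 1, 0, 0, 0 and 1 (background 0%, 0.00327%, 0.00341%, 0%, 0% and 0.0582%). Unadjusted p-values under 0.05 were found for 7.09%, 6.89%, 3.68%, 1.65%, 1.01% and 7.96% of all LTR loci in these populations. Median log2 fold changes of members were 0.04, 0.03, −0.04, −0.74, 0.19 and 0.04 in the same order, and of all LTR loci 0.04, 0.03, −0.04, −0.69, 0.15 and 0.02. With a common total the medians of all in F3 P4 and P5 moved to −0.47 and 0.04. Without the libraries that stand apart, no member and no other LTR locus passed in F1 P6, F3 P4 or F3 P5. At an unadjusted p under 0.05 there were 226, 398 and 233 members. Over all LTR loci these were 4709 of 88037, 7542 of 86412 and 4872 of 105423. The medians were then 0.36 over members and 0.34 over all LTR loci in F3 P4, and 0.00 and 0.01 in F3 P5.

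The 1 locus was the MTC at chr4:133546840-133547210, outside genes and 813 bp upstream of Nudc, a gene of the dynein-linked nuclear distribution machinery on the minus strand. In F1 P5 its DMSO libraries 43-4, 43-5, 44-1 and 48-4 read 9.57, 8.87, 14.1 and 13.8 CPM. The TBT libraries 45-3, 45-4, 45-5, 47-1, 47-3, 47-4 and 47-5 read 24.6, 23.7, 31.6, 42.2, 44.02, 53.0 and 36.5 CPM. Every TBT library was above every DMSO library. The mean rose from 11.6 ± 2.75 (SD, n = 4) to 36.5 ± 10.7 CPM (SD, n = 7), a 3.07-fold change (log2 1.62, SE 0.21, adjusted p = 0.00612 in limma). It passed in each of 7 alternative fits and with any of the 11 libraries left out, with a log2 fold change between 1.501 and 1.721 and an adjusted p of at most 0.0339.

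Within TBT, the libraries whose labels open with 45 were at 23.7 to 31.6 CPM and those that open with 47 at 36.5 to 53.0 CPM, without overlap. The labels of DMSO libraries open with 43, 44 or 48. What this first number stands for is not given in the sources used here, and no number occurs in both groups, so the exposure and a source of the libraries marked by it cannot be told apart. All LTR loci outside genes had a median log2 fold change of 0.37 between TBT and DMSO in F1 P5, and members outside genes 0.45. The share of member reads outside genes was 2.77% to 4.12% in DMSO and 3.06% to 5.40% in TBT, and its part in the change at this locus was not tested. In the order of the readings above, the shares were 3.57%, 3.48%, 4.12% and 2.77% in DMSO and 3.53%, 3.73%, 4.26%, 5.40%, 5.11%, 4.91% and 3.06% in TBT. The libraries over 4.9% were thus 3 of those whose labels open with 47, which read 42.2 to 53.0 CPM.

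In F1 the locus was read mainly in P5. In F1 P4 it was at 0 to 2.52 CPM in DMSO and 0 to 5.70 CPM in TBT, and in F1 P6 at no more than 2.72 CPM. P5 exceeded P4 by a log2 of 3.82 (SE 0.72, adjusted p = 4.9e-04) in DMSO and 5.28 (adjusted p = 2.2e-08) in TBT. The TBT effect was not shown to differ between P5 and P4 (difference 1.46, SE 0.92, adjusted p = 1.00). The MTC inside Nudc, at chr4:133543962-133544336 and 2504 bp away, had 74.4 ± 7.96 CPM in DMSO and 74.96 ± 15.7 CPM in TBT of F1 P5 (log2 −0.01, SE 0.16, adjusted p = 0.997), and in DMSO it was at 95.4 ± 8.17 CPM in P4 and 45.1 ± 4.61 CPM in P6. It was named after its values were seen. The 4 LTR loci within 5000 bp on the far side of the element had means of at most 0.577 CPM in F1 P5. The 4 LTR loci in the intron of Nudc had nearly equal means, from 72.6 to 74.8 CPM. The MTC was thus read at other levels than the intron beside it.

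In F3 P5 the same MTC was abundant in both groups and not higher in TBT. DMSO libraries read 128, 109, 66.3 and 32.5 CPM and TBT libraries 0, 36.1, 32.4, 88.9 and 67.7 CPM (log2 −2.01, SE 1.16, adjusted p = 1.00). Without DMSO libraries 1 and 2 and TBT library 5 the difference was 0.15. F3 P4 was at 0 to 14.0 CPM in DMSO and 0 to 12.2 CPM in TBT, and F3 P6 at no more than 0.394 CPM. P5 exceeded P4 by a log2 of 5.49 in DMSO and 3.82 in TBT, with adjusted p of 0.232 and 0.850.

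**Figure D5:**
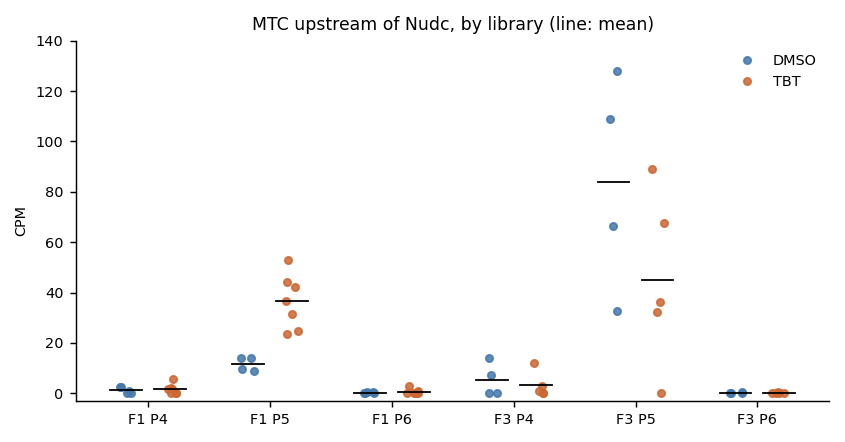
CPM (linear axis) of the MTC 813 bp upstream of Nudc in each library of the 6 populations, blue for DMSO and orange for TBT, with a line at the group mean. In F1 P5 the 7 TBT libraries lie between 23.7 and 53.0 CPM, above the 4 DMSO libraries at 8.87 to 14.1 CPM, and in F3 P5 the groups overlap.

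The members nearest to the threshold in F1 P4 and P6 were weakly read. They were chosen by lowest p, which favours groups without overlap. In F1 P4, the MTB_Mm-int near Gm18101 had 0 to 3.35 CPM in DMSO and 2.60 to 7.88 CPM in TBT (log2 1.95, adjusted p = 0.582). The MTC in an intron of Tprkb, of the KEOPS complex that modifies tRNA, had 2.52 to 5.17 and 0.712 to 2.35 CPM (log2 −1.36, adjusted p = 0.582), without overlap. In F1 P6, the MTC in an intron of Nfil3, a bZIP transcription factor gene, read 4.68, 4.50, 5.72, 5.49 and 19.5 CPM in DMSO and 13.3 to 17.99 CPM in TBT (log2 1.18, adjusted p = 0.580). One DMSO library lay above all TBT libraries. The MTC in Dcun1d2, a neddylation gene, had 4.68 to 8.96 and 2.17 to 5.40 CPM (log2 −0.88, adjusted p = 0.999).

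In F3 germline cells the members of lowest p in each direction did not pass either. The MTC near Tigar, a fructose bisphosphatase gene, had no read in F3 P4 DMSO and 27.1, 1.66, 0.469, 0.932 and 30.6 CPM in TBT, the 2 high values being of libraries 5 and 9, which stand apart. The MTC in Psmb1 read 671 to 1121 CPM in DMSO and 335 to 711 CPM in TBT there (log2 −0.74, adjusted p = 0.870). In F3 P5, the MTC-int near Psma5-ps had no read in DMSO and 0, 2.95, 3.69, 15.2 and 6.74 CPM in TBT. The MTC in an exon of Gm42439 read 50.7, 79.7, 0 and 1.15 CPM in DMSO, the first 2 of the libraries that stand apart, and at most 0.491 CPM in TBT.

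In F3 P6 the members of lowest p in each direction lay in Lama2 and Smc6. The MTC in an intron of Lama2, a laminin gene, read 12.1, 18.9, 8.19 and 11.2 CPM in DMSO and 19.3, 25.5, 20.7, 27.3 and 19.4 CPM in TBT (log2 0.87, adjusted p = 0.102), without overlap. The MTB_Mm in Smc6, of the SMC5/6 complex, read 46.4, 47.1, 47.6 and 35.3 CPM in DMSO and 27.3 to 34.5 CPM in TBT (log2 −0.50, adjusted p = 0.180). Neither passed. The groups did not overlap at either locus, which choosing the lowest p among 5626 members favours.

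Species totals showed no difference that passed in any population by limma (background 0% in each) or by edgeR. Their log2 fold changes were 0.06 to 0.09 in F1 P4, −0.00 to 0.18 in F1 P5, 0.00 to 0.14 in F1 P6, −0.67 to −0.46 in F3 P4, −0.60 to −0.10 in F3 P5 and −0.05 to 0.09 in F3 P6. Without the libraries that stand apart they were −0.01 to 0.08 in F1 P6, −0.13 to 0.10 in F3 P4 and −0.08 to 0.17 in F3 P5. At an unadjusted p under 0.05 there were 2 totals, both in F1 P6. The backgrounds at that p were 7.68%, 4.79%, 6.36%, 3.02%, 0% and 9.37% in the 3 populations of F1 and then of F3. MTC totals were 38426 ± 770 CPM in DMSO and 39103 ± 1885 CPM in TBT of F1 P6, and 47220 ± 1800 and 37096 ± 14400 CPM in F3 P4, where TBT without libraries 5 and 9 was at 47378 ± 1409 CPM (n = 3). Outside genes, F1 P6 totals were 301.5 ± 98.1 CPM in DMSO and 1087 ± 1230 CPM in TBT, where libraries 7 and 8 were high. Their log2 fold changes by species were 0.84 to 1.24 with all libraries and 0.11 to 0.42 without these 2, none of which passed. In F3 they were −0.41 to 1.44 in P4 and −1.04 to −0.29 in P5 with all libraries, and −0.64 to 1.35 and 0.31 to 0.49 without those that stand apart, where none passed either.

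The MTC of Dicer1, at chr12:104727225-104727621, overlapped an exon of a GENCODE transcript and averaged 7.71 CPM in F1 P4, 5.21 in P5 and 1.79 in P6. Its F1 P4 DMSO libraries read 7.998, 9.34, 6.24, 10.6 and 6.63 CPM, and the P5 DMSO libraries 6.70, 3.03, 7.58 and 4.37 CPM. In F1 P4 it was not separable from its neighbours, since 6 LTR loci there held the same number of reads in all 12 libraries. Elsewhere the means were close but not equal. The neighbours averaged 5.06 to 5.51 CPM in F1 P5, and 6.66 to 6.71 CPM in F3 P4 against 7.67 CPM at the MTC. P5 against P4 gave −0.63 (adjusted p = 0.137) in DMSO and −0.50 (adjusted p = 0.0894) in TBT. Between TBT and DMSO the log2 fold change was −0.17, −0.05 and −0.09 in F1 P4, P5 and P6, where the groups overlapped, and −0.48 in F3 P6 (adjusted p = 0.669). F3 P4 DMSO libraries read 5.65, 15.2, 16.2 and 8.88 CPM and TBT libraries 0, 8.13, 3.05, 5.82 and 6.11 CPM (log2 −1.83, adjusted p = 0.870, or −0.97 and 0.563 without TBT libraries 5 and 9). F3 P5 DMSO libraries read 0, 0, 1.38 and 5.31 CPM and TBT libraries 0, 3.19, 6.26, 6.41 and 4.69 CPM (log2 1.64, adjusted p = 1.00, or 0.78 and 0.833 without DMSO libraries 1 and 2 and TBT library 5). The zeros of F3 P5 were thus those of the libraries that stand apart.

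Finally, DNA methylation at members was examined in P6 cells by MBD-seq, which counts fragments bound by a methyl-CpG binding protein in windows of 100 bp. Of the 154773 windows of F1 and 164382 of F3, 795 and 828 shared at least 50 bp with a member. Of these, 61.3% and 60.3% held no CpG, against 53.0% of all windows in each generation. Member windows took 0.392 ± 0.0171% (SD, n = 3) and 0.394 ± 0.00914% (n = 4) of the counts in F1 DMSO and TBT. In F3 they took 0.397 ± 0.0125% (n = 5) and 0.389 ± 0.0219% (n = 7). The ranges of DMSO and TBT overlapped in both generations. EdgeR's quasi-likelihood test called no member window of 94 in F1 (background 0.0318%, 3 at an unadjusted p under 0.05, background 5.05%) and none of 179 in F3 (background 0%, 11 windows, background 5.16%). DESeq2 and the likelihood ratio test called none either. The windows tested covered only 81 member loci in F1 and 155 in F3, of 43199, and 21.3% and 31.8% of them held no CpG. Median log2 fold changes of member windows were −0.01 in F1 and −0.00 in F3.

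The windows nearest to the threshold did not pass. In F3, an MTC window without a CpG in an intron, chr9:98600401-98600500, had 12.3, 14.2, 12.7, 10.4 and 11.8 CPM of the library's window counts in DMSO and 12.2 to 26.0 in TBT (log2 0.62, adjusted p = 0.913). An MTC window with 4 CpGs, chr12:31999901-32000000, was lower in TBT with a log2 of −0.52 (adjusted p = 0.932). In F1, an MTC window with 5 CpGs that overlapped an exon, chr7:89215901-89216000, had 8.52, 7.13 and 6.48 CPM in DMSO and 11.3, 15.9, 9.02 and 11.5 in TBT (log2 0.72, adjusted p = 0.976). Every TBT library was above every DMSO library there. An MTC window with 2 CpGs outside genes, chr1:105885901-105886000, gave −0.82 (adjusted p = 0.976). These 4 windows held 3 to 29 reads per library. No member locus was measured for methylation in the germline here.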

How the data were processed

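RNA-seq of sorted P4, P5 and P6 cells was given as 4 tables of LTR loci, and MBD-seq of P6 cells as 2 tables of 100 bp windows, 81 samples in 16 groups. For the LTR tables, the authors prepared oligo(dT)-primed SMARTer cDNA, trimmed paired reads with Trim Galore, aligned them with STAR to mm10, counted them at RepeatMasker LTR loci with a modified ERVmap and scaled them by TMM in edgeR. The deposited signal is thus counts per library total after TMM (CPM). How reads that match several copies were assigned is not given in the sources used here, so values of single loci may include reads of near-identical copies, and the cDNA does not keep the strand. Oligo(dT) priming favours polyadenylated RNA. P6 tables were scaled apart from germline tables, and F1 apart from F3. The MBD-seq counts were deposited by the authors as raw counts per window after MethylMiner enrichment, with the number of CpG sites per window.

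Every value of the LTR tables was a whole number of reads (100% within 0.01 of a read), and 1 read was worth 0.129 to 0.957 CPM. Tests used limma 3.58.1 with a trend on log2 of CPM plus the value of 1 read, over all LTR loci with a mean of at least 5 reads, with Benjamini-Hochberg adjustment over all of them and an FDR threshold of 0.05. Fold changes on this scale understate changes of low loci. Species totals were tested likewise. P5 was compared with P4 in 1 fit of the 4 groups of a generation. MBD windows with at least 50 bp in a member were tested in edgeR 4.0.16 (quasi-likelihood, TMM). Alternatives were pseudocounts of 0.25 and 4 reads, no filter, a mean of at least 20 reads, a common total, edgeR's tests on the recovered reads, loci outside genes only, the replicate number as a block, DESeq2 1.42.0 for MBD windows, and each library left out. Leaving out the libraries that stand apart or the 2 highest loci of each species, and the block with loci outside genes only, were added after seeing the data. The block rests on the labels, which give P4 and P5 libraries the same numbers. Deviations from the group means of same-numbered P4 and P5 libraries correlated with r from −0.01 to 0.28 over 11 pairs in F1 (6 above 0.1) and from −0.09 to 0.46 over 9 pairs in F3 (7 above 0.1), and 4 and 2 libraries correlated best with their own number.

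Exons and introns were taken from GENCODE M21, and nearest genes and sequences from RefSeq GRCm38.p6. Scripts were tested on simulated data (R 4.3.3, Python 3.11.15, pysam 0.24.0, Biopython 1.88). The members and lists were chosen with earlier results of these data known. Named were all species, the 10 highest loci, the 5 highest outside genes, the Dicer1 MTC, for each comparison the 2 called loci of largest change in each direction whose groups do not overlap or, where none was called, the locus of lowest p, and the MBD windows of lowest p. Others are said to be named after their values were seen, and so were the MTB near Mylip and the sequence of the MTC near Nudc. Loci of chromosome 18 were counted but are not described here.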

Additional observations from a re-analysis of the deposited data

Results flagged for a closer look

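In 144 groups of values, 14 held a library farther from the rest of its group than Dixon's 95% limit allows. Chance flags about 1 in 20 groups.

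F3 P5 TBT library 5 accounted for 6 of them. It had the highest share of member reads outside genes of its group, 28.4%, and the lowest totals of MTC (6562 CPM), MTB (1239 CPM), MTB_Mm (1405 CPM), MTC-int (495.5 CPM) and MTB-int (52.6 CPM). It also had the fewest member reads, 10222.

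Other totals flagged were those of MTC in F1 P6 TBT library 11 (43059 CPM), MTB_Mm in F3 P6 TBT library 9 (6040 CPM) and MTC-int in F3 P4 DMSO library 4 (5323 CPM), each the highest of its group. Single loci were flagged at the MTC near Nudc in F1 P4 TBT library 47-3 (5.70 CPM) and F3 P4 TBT library 5 (12.2 CPM). The MTC in Dicer1 was flagged in F1 P4 TBT library 45-3 (13.01 CPM), and the MTB near Mylip in F1 P5 TBT library 47-1 (7.95 CPM) and F3 P5 DMSO library 1 (56.1 CPM), again the highest of their groups.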

How the results depend on the processing

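Counts of called members between TBT and DMSO changed in these settings. By edgeR's likelihood ratio test they were 1 in F1 P4, 13 in F1 P5, 159 in F3 P5 and 13 in F3 P6 (0.0982%, 0.32%, 3.13% and 0.32% of all LTR loci tested). Without a filter they were 38 in F1 P5, 1 in F1 P6 and 2 in F3 P6 (of all 0.202%, 0.00585% and 0.0367%), and by the quasi-likelihood test 1 in F3 P6 (0.0582%). With 1 library left out they ranged from 1 to 4 in F1 P5 (4 without DMSO 48-4, 2 without DMSO 43-5 or 44-1), from 0 to 1 in F1 P6 (1 without TBT 11 or DMSO 12) and from 0 to 5 in F3 P6 (5 without DMSO 2), while those of all LTR loci ranged from 0.00327% to 0.0769%, from 0% to 0.0159% and from 0.0114% to 0.138%.

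Between P5 and P4 of F1 DMSO, 459 members passed without a filter (1.62% of all LTR loci) and from 472 to 781 with 1 library left out (472 without P5 44-1, 485 without P5 43-5). In TBT the range was 1408 to 1726. All LTR loci ranged from 8.32% to 13.4% and from 25.3% to 30.9%. For F3, counts in DMSO and TBT were 6 and 1 with a pseudocount of 4 (0.163% and 0.0143% of all), 8 and 1 with a common total (0.219% and 0.0133%), 322 and 50 by the likelihood ratio test (6.87% and 1.53%), 3 by the quasi-likelihood test in DMSO (0.0224%), 123 and 51 without the libraries that stand apart (2.2% and 1.16%), and 0 to 24 and 0 to 13 with 1 library left out (24 and 13 without TBT P5 5, 11 in DMSO without DMSO P5 4, 5 without DMSO P5 2, and 1 in TBT without DMSO P5 1 or 2; of all, 0% to 0.596% and 0% to 0.289%). The difference between TBT and DMSO was called at 3 members in F1 by the likelihood ratio test (0.0592% of all) and at 1 in F3 without the libraries that stand apart (0.00612%). Called totals of F1 DMSO were 3 with a common total (40.2% of all species), 1 by each edgeR test (24.1% and 26.7%) and 2 to 6 with 1 library left out (21.2% to 39.2%; 2 without P5 44-1, 3 without P4 43-4, P4 43-5, P5 43-5 or P4 48-4). In TBT they were 5 to 6 with 1 library left out (54.5% to 62.7%), and 4 with a common total (61.6%) and by each edgeR test (55.3% and 55.9%). For F3 DMSO and TBT they were 3 and 1 with loci outside genes only (33.7% and 17.2% called higher), the latter 4 without the libraries that stand apart (67%).

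Directions reversed for F1 totals with loci outside genes only. In DMSO these were 1.06 (MTB), 0.34 (MTB_Mm), 0.65 (MTB_Mm-int), 1.40 (MTB-int), 0.99 (MTC) and 1.06 (MTC-int), and in TBT 1.72, 0.50, 0.26, 1.83, 1.38 and 1.28 in the same order. With the replicate block as well, the DMSO values were 1.09, 0.30, 0.44, 1.24, 1.00 and 1.04, and those of TBT were as without it. MTB-int was at 0.057 in TBT with a common total. The MTC near Nudc in F3 P5 was at 0.15 without the libraries that stand apart, and the TBT difference of the MTC in Dicer1 in F1 P5 ranged from −0.29 to 0.14 with 1 library left out. The causes were not tested.

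With the replicate block, a fit of P5 against P4 by shared library number, 1164 members passed in F1 DMSO (20.6% of all LTR loci) and 15 and 3 in F3 DMSO and TBT (0.328% and 0.0551%). With loci outside genes only and the block, 5 and 3 totals passed in F3. Among the loci whose test of P5 against P4 is given in the report, the block changed the calls at Hs3st1, 9530026F06Rik and CN725425. Depth limits loci of a few reads, and 3 reads were worth 0.386 to 2.87 CPM over the libraries.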
